A study of Mus musculus with 12 samples.

Results

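How far the response to loss of LSD1 differs between 2 kinds of mouse B cell was measured here as a difference of differences. The response in a cell type is the log2 expression in cells without LSD1 minus that in cells with it. The quantity reported for each gene is the eMZB response minus the TrB response, called the difference of responses below: above 0, loss of LSD1 went with a more positive change in eMZB, and below 0 with a more positive change in TrB. The comparison is defined by its contrast and uses all 12 of the 12 libraries of the series and all 9842 genes of the deposited table. All 4 groups, each of 3 libraries numbered 1 to 3, are B cells from the spleens of female C57BL/6J mice. TrB are transitional B cells, unstimulated, sorted as B220 and CD93 positive and as Thy1.1, F4/80 and CD11b negative. The eMZB are marginal zone B cells made ex vivo: transitional B cells were kept for 3 days in culture with BAFF, a survival factor, and DL1, a Notch ligand, then sorted with the same exclusions as B220, CD21 and CD1d positive. In each cell type the label pos marks cells wild type for LSD1 and the label del marks the knockout. The labels give neither the age of the mice nor how, or in which cells, the gene was deleted, and they do not say whether a group's libraries came from separate animals, so a p-value here reflects only how much these libraries vary, and that variation may be technical. eMZB also differ from TrB by the culture and by the sorting gate, and stage, culture and gate cannot be told apart.

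LSD1, encoded by Kdm1a, removes methyl groups from lysine 4 of histone H3 at promoters and enhancers. It works within complexes with the CoREST proteins and class I histone deacetylases, is brought to DNA by factors such as GFI1, and is best known for keeping genes off. Transitional B cells are recent arrivals from the bone marrow. BAFF sustains them through the noncanonical NF-kB pathway, and a Notch2 signal given by DL1 directs some of them to the marginal zone, where B cells carry high CD21 and CD1d.

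Kdm1a itself stood at 8.54, 7.93 and 3.47 in the 3 TrB_pos libraries in order of replicate number, in scaled FPKM (fragments per kilobase of gene length per M reads, M for mega, divided by a factor per library). In TrB_del it stood at 3.35, 2.56 and 2.99, in eMZB_pos at 7.53, 8.63 and 4.68, and in eMZB_del at 2.65, 2.53 and 2.66. Both deleted groups lay below their controls without overlap, but the libraries labelled TrB_pos replicate 3 and eMZB_pos replicate 3 were the lowest of their groups, and the former came close to the deleted range. RNA from outside the deleted part, which the labels do not name, would still be counted. The difference of responses of Kdm1a was -0.23 on the log2(scaled FPKM + 1) scale used throughout (standard error, SE, 0.36), with a 95% interval of -1.01 to 0.56 and an adjusted p of 0.937 in limma, so its response (-0.87 in TrB and -1.10 in eMZB) was not shown to differ between the cell types at this precision.

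Reads in listed genes ran from 1.96 to 8.78 M per library. TrB_del replicate 3 stood apart, with 61.6% of its reads in listed genes against 16.7% to 20.9% in the other TrB libraries and with 285 listed genes at 0 against 30 to 52. Of the 16 macrophage and monocyte markers 5 were listed, of 13 dendritic cell markers 5, of 13 stromal markers 3, of 12 erythroid markers 2, of 15 T cell, 10 NK cell and 8 platelet markers 1 each, and of 14 neutrophil markers 0. In bulk RNA, fewer cells of a type and less RNA per cell cannot be told apart.

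Loss of LSD1 had a different consequence in the 2 cell types for Flt3, a receptor of blood cell progenitors. In eMZB it rose from a mean of 0.824 to 5.15 scaled FPKM, while in TrB it stood at 0.777 with LSD1 and 0.433 without. Genes that changed in both cell types, such as Ctse, Ddx23 and Itgb7, which rose, and Ide and Btg2, which fell, were not shown to change by different amounts. Of the 9842 genes, Flt3 was the 1 whose difference of responses passed the test (limma, Benjamini-Hochberg adjusted p under 0.05), 0.0102% of those tested, with a positive difference. With a negative difference, 0 genes passed in limma, and 0 passed in voom on the recovered reads. At an unadjusted p under 0.05 there were 282 genes with a positive difference (2.87%) and 392 with a negative one (3.98%), together 674 (6.85%). The split moved with the scaling: under upper-quartile factors it was 380 positive to 240 negative. It also moved with single libraries, to 506 positive and 504 negative without the library labelled TrB_del replicate 1, and to 431 and 548 without TrB_pos replicate 3. The second smallest adjusted p was 0.0812, and 16 genes had one under 0.2. By comparison the TrB response alone called 49 genes (0.498%) and the eMZB response alone 40 (0.406%), and a gene called in one and missed in the other is not thereby shown to respond differently.

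The precision set what could be seen. The median SE of the difference was 0.20 over all genes, and the 5th and 95th percentiles of the estimates were -0.37 and 0.51. For 8572 genes (87.1%) the 95% interval lay within -1 to 1, a bound on the log2(scaled FPKM + 1) scale, on which a low gene can change by more than 2-fold in level and still lie inside. The count moved with the constant added before the log, to 6808 genes with 0.1 and 9718 with 5, and was 6656 with voom on the recovered reads. With a constant of 1, for the other 1270 it reached past that bound. Among the 5073 genes whose mean reached 5 scaled FPKM in some group the interval lay within the bound for 4778 (94.2%). An estimate beyond 1 in size was found for 124 genes, 67 of them microRNA or small nucleolar RNA genes, which rest on few reads. Small RNA genes were 198 of the 9842 genes tested and made up 5 of the 20 genes of smallest p. Mir7211, with a difference of 2.87 (adjusted p = 0.0812 in limma), was at 0 in TrB_del and eMZB_pos. Its 3 TrB_pos values rest on 4, 2 and 1 reads, so the size of its difference depends on the constant added before the log. Across genes the responses in the 2 cell types had a Pearson correlation of 0.14 and a Spearman correlation of 0.08, given as a description over 9842 genes that are not independent replicates and were mostly called in neither response.

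**Figure D1:**
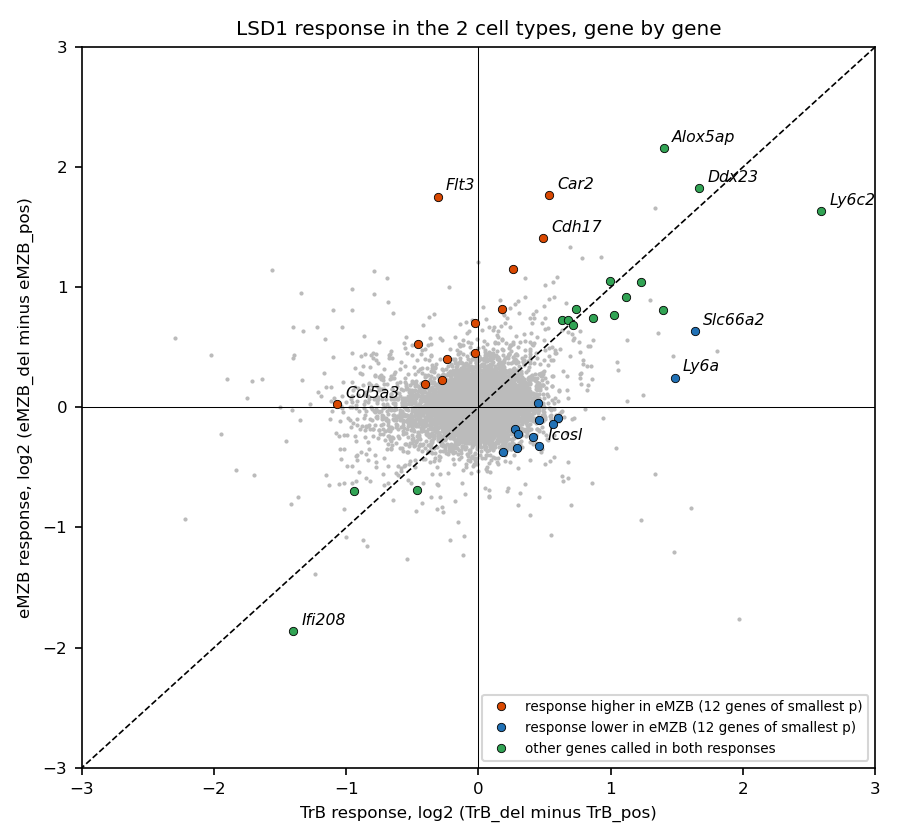
LSD1 response of each of the 9842 genes in TrB (horizontal axis) and in eMZB (vertical axis), both as log2 (del minus pos) of scaled FPKM + 1; the dashed diagonal marks equal responses. Flt3 lies at -0.31 in TrB and 1.76 in eMZB, farthest above the diagonal among the coloured genes, while of those called in both responses (green, with Slc66a2 in blue) Ly6c2 and Slc66a2 lie below the diagonal and Alox5ap above it.

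Flt3 is the receptor tyrosine kinase for FLT3 ligand. It is a receptor of early lymphoid and myeloid progenitors and of dendritic cells, and B cells lose it as they commit and mature. The gene lies on chr5:147330741-147400489 (mm10, RefSeq), on the minus strand. In TrB_pos it stood at 0.864, 0.747 and 0.721 scaled FPKM and in TrB_del at 0.469, 0.402 and 0.430. In eMZB_pos it stood at 1.06, 0.737 and 0.675, and in eMZB_del at 5.67, 4.52 and 5.27. The eMZB_del libraries were the high ones, and the other 9 lay at 1.06 or less. In TrB the order of the scaled values was the opposite, with every deleted library below every control. The library labelled TrB_del replicate 3 was divided by a factor of 2.144, against 0.613 to 0.766 for the other TrB libraries. Its place below the controls therefore depends on the scaling. Levels in TrB were low, at 13 to 48 reads in TrB_del and 19 to 27 reads in TrB_pos. In eMZB_del there were 284 to 450 reads and in eMZB_pos 20 to 63. In means ± SD (n = 3), Flt3 went from 0.824 ± 0.207 to 5.15 ± 0.586 in eMZB, a ratio of 6.25, and from 0.777 ± 0.076 to 0.433 ± 0.034 in TrB, a ratio of 0.557. The eMZB response was 1.76 (adjusted p = 4.1e-05 in limma) and the TrB response -0.31 (adjusted p = 0.45). Their difference was 2.06 (SE 0.19), with a 95% interval of 1.66 to 2.47 and an adjusted p of 9.1e-04 in limma. It passed in 25 of the 25 alternative settings in which it was tested, with adjusted p from 1.66e-04 to 0.0391, and without any 1 library it ran from 1.99 to 2.14. It was not among the genes tested when at least 5 scaled FPKM in 3 libraries were required. The other dendritic cell markers that were listed, Bst2, Tcf4, Cd209a and Irf8, summed to 61.8 to 65.0 scaled FPKM in eMZB_pos and to 60.7 to 66.6 in eMZB_del, ranges that overlap. Irf8 was the largest part, with means of 36.5 and 38.9, and Cd209a stood at 1.12 and 0.883. A small share of dendritic cells could therefore not be seen in the sum, and their part in the value of Flt3 was not tested.

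**Figure D2:**
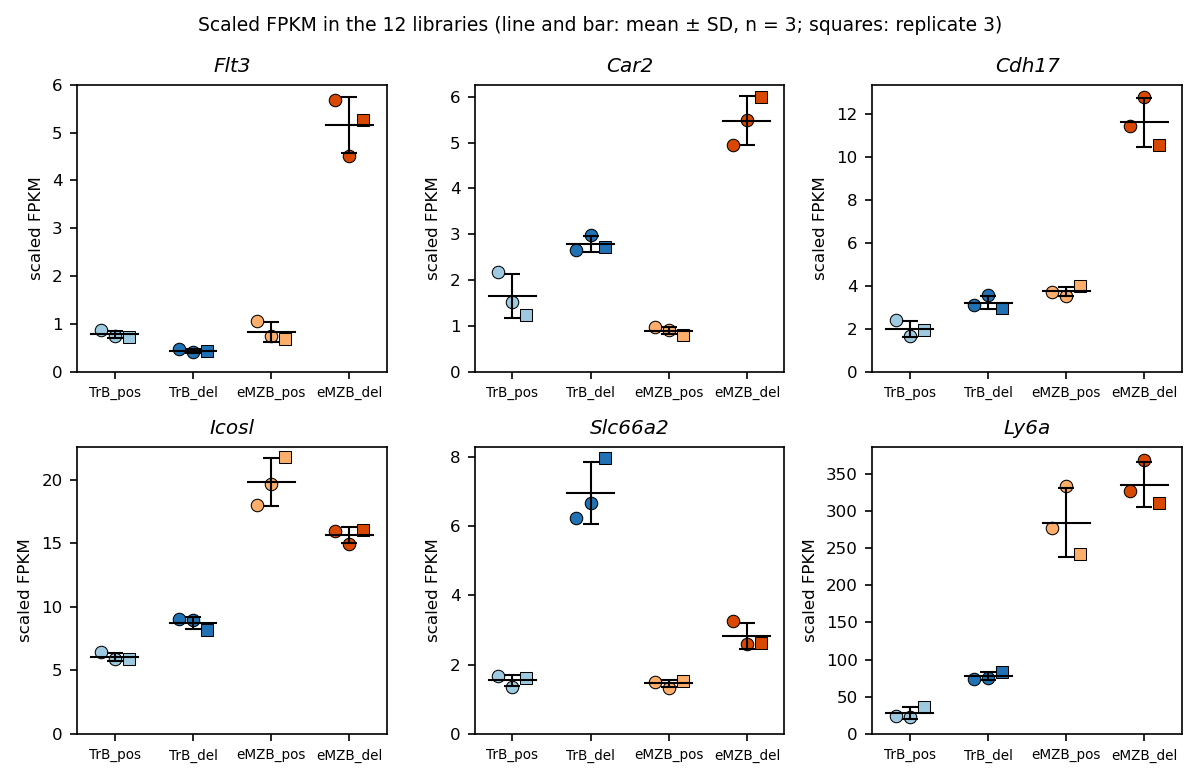
Scaled FPKM of 6 genes in each of the 12 libraries, with the mean and SD of each group of 3 as line and bar; squares mark replicate 3, and each vertical axis starts at 0. Flt3, Car2 and Cdh17 are high in the 3 eMZB_del libraries, while Icosl, Slc66a2 and Ly6a change by a larger ratio in TrB than in eMZB.

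Since Flt3 is the gene that passed and Icosl the one of smallest p in the opposite direction, the 250 bases before each start are shown from RefSeq (GRCm38.p6), 5′ to 3′ on the gene's strand. All letters are in lower case because none of the 4 motifs searched was found in them or in the 50 bases after the start. Flt3 is at chr5:147400490-147400739, minus strand, and Icosl at chr10:78069118-78069367, plus strand.
Flt3: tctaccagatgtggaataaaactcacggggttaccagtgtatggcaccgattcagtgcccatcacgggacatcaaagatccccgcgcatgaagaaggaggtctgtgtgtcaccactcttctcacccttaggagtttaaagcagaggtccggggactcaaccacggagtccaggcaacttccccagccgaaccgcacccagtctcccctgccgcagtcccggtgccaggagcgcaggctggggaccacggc
Icosl: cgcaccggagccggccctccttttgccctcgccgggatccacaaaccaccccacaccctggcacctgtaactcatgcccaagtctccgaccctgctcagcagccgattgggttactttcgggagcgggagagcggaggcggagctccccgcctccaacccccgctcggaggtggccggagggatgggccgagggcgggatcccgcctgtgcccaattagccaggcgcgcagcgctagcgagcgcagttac
The motifs, searched on both strands, were TGGGAA for RBPJ (the DNA-binding partner of Notch), the NF-kB consensus with 2 free bases at its centre, GAGGAAGT for PU.1 and AAATCAC for GFI1. Among the promoters of the same length that matched 7831 of the 9842 listed genes, 22.4%, 1.5%, 3.6% and 2.1% held a match in that order. The absence of a match says only that these letters do not stand in this window.

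Outside the threshold, the genes of smallest p with a positive difference were led by Car2, Cdh17 and Col5a3. Car2 encodes carbonic anhydrase 2, which interconverts CO2 and bicarbonate. It stood at 2.17, 1.53 and 1.24 scaled FPKM in TrB_pos, 2.65, 2.98 and 2.72 in TrB_del, 0.979, 0.903 and 0.810 in eMZB_pos, and 4.94, 5.49 and 6.00 in eMZB_del. Deleted libraries were the higher ones in both cell types without overlap, by a ratio of means of 6.10 in eMZB and 1.69 in TrB. The difference of responses was 1.24 (SE 0.19, interval 0.83 to 1.65, adjusted p = 0.0812 in limma), and in 3 of 25 alternative settings it passed. One of these left out the library labelled TrB_pos replicate 3, which gave 1.37 with an adjusted p of 0.0194 in limma. Car2 is also an erythroid marker, and Hbb-bs, an adult beta globin and the other erythroid marker listed, had a difference of 1.13 (adjusted p = 0.184). Both together summed to 1.36 to 1.86 scaled FPKM in eMZB_pos and 6.60 to 7.48 in eMZB_del, 3.84 to 4.26 in TrB_pos and 3.64 to 4.91 in TrB_del. Car2 was the larger part in eMZB_del, so the sum mostly restates it there. Hbb-bs alone had means of 0.687 in eMZB_pos and 1.53 in eMZB_del. In TrB its means were 2.41 in TrB_pos and 1.36 in TrB_del, the opposite order to Car2. The part of erythroid RNA in the value of Car2 was not tested.

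Cdh17, the adhesion protein cadherin 17, stood at 2.39, 1.65 and 1.95 in TrB_pos, 3.10, 3.54 and 2.95 in TrB_del, 3.71, 3.52 and 3.96 in eMZB_pos, and 11.4, 12.8 and 10.6 in eMZB_del. As for Car2, deleted libraries were higher in both cell types without overlap, and the eMZB_del libraries were the highest of the 12. The difference was 0.92 (SE 0.16, interval 0.57 to 1.27, adjusted p = 0.119). Col5a3, a chain of type V collagen, fell in TrB, from 12.5, 10.4 and 13.1 in TrB_pos to 4.65, 4.57 and 6.48 in TrB_del (response -1.07, adjusted p = 0.0044 in limma). In eMZB it was between 0.0408 and 0.272 in all 6 libraries, far below the constant of 1 added before the log, so no fall could have been seen there. Its difference of 1.10 (SE 0.21, adjusted p = 0.149) therefore restates the TrB response and does not measure a different response in eMZB. Col5a3 is also 1 of the 3 stromal markers listed, with Vim and Acta2. The 3 summed to 41.9 to 45.2 scaled FPKM in TrB_pos and 37.3 to 41.0 in TrB_del, without overlap, and to 13.5 to 35.2 in eMZB_pos and 14.9 to 23.7 in eMZB_del. Without Col5a3 the sum ran from 29.4 to 34.0 in TrB_pos and 31.7 to 36.4 in TrB_del, ranges that overlap. Vim made up most of it, with means of 30.4 and 32.6, so a small share of stromal cells could not be seen in the sum. Their part in the value of Col5a3 was not tested.

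The 12 genes named with a positive difference, Flt3 among them, were completed by Myo7a (a myosin motor; 0.73), Ccr1 (a chemokine receptor; 0.99), Zbtb32 (a zinc finger repressor; 0.89), Pisd-ps3 (a pseudogene, whose reads cannot be separated from related copies; 0.48), Mrpl45 (0.50), Zfp52 (0.64), Gstt2 (0.64) and Galk1 (0.60). Adjusted p for these 8 lay between 0.311 and 0.512. The eMZB response was above 0 for all 12 and the TrB response below 0 for 8, which follows in part from the way they were chosen. Of the 8, Myo7a, Zbtb32, Gstt2 and Pisd-ps3 passed the test in eMZB alone. Zbtb32 ran from 0.521 to 0.912 in TrB_pos, 0.919 to 1.21 in TrB_del, 1.26 to 2.17 in eMZB_pos and 4.67 to 5.86 in eMZB_del. Ccr1 lay lower in TrB_del (1.14 to 2.24) than in TrB_pos (2.43 to 3.62) and higher in eMZB_del (5.42 to 6.32) than in eMZB_pos (3.52 to 3.82), without overlap either time.

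With a negative difference, the smallest p belonged to Icosl, the ligand of the T cell costimulator ICOS. It stood at 6.43, 5.88 and 5.92 scaled FPKM in TrB_pos, 9.01, 8.98 and 8.18 in TrB_del, 18, 19.6 and 21.8 in eMZB_pos, and 16.0, 14.9 and 16.0 in eMZB_del. Deleted libraries were the higher ones in TrB and the lower ones in eMZB, without overlap in either. The TrB response was 0.46 (adjusted p = 0.0453 in limma) and the eMZB response -0.32 (adjusted p = 0.311). The difference was -0.78 (SE 0.12, interval -1.05 to -0.51, adjusted p = 0.0812), and weighting the libraries by their estimated precision brought it to an adjusted p of 0.0284 in limma.

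Slc66a2, a member of a family of membrane transporters, changed in the same direction in both cell types but by unequal ratios. It stood at 1.66, 1.37 and 1.62 in TrB_pos, 6.23, 6.65 and 7.95 in TrB_del, 1.51, 1.33 and 1.53 in eMZB_pos, and 3.24, 2.60 and 2.62 in eMZB_del. The 6 control libraries lay between 1.33 and 1.66, and the deleted libraries were above them in both cell types, those of TrB the highest. It rose by 1.64 in TrB (adjusted p = 6.9e-05) and by 0.64 in eMZB (adjusted p = 0.0403), and the difference was -1.0 (SE 0.17, interval -1.36 to -0.64, adjusted p = 0.0812 in limma).

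Ly6a, the surface protein Sca-1, shows how the answer depends on the scale. Its levels were 23.9, 22.3 and 36.8 in TrB_pos, 73.9, 74.7 and 83.6 in TrB_del, 277, 334 and 241 in eMZB_pos, and 326, 369 and 311 in eMZB_del. The controls of the 2 cell types were far apart, and the genotypes overlapped in eMZB only. On the log scale the difference was -1.24 (SE 0.23, interval -1.75 to -0.73, adjusted p = 0.149 in limma). The difference of the changes in mean scaled FPKM was 1.4. That is small beside the spread within groups, 241 to 334 in eMZB_pos, so its sign is not determined. Without the library labelled TrB_pos replicate 3, the highest of the TrB controls, the log-scale difference was -1.45 with an adjusted p of 0.0123 in limma. Among the 12 genes of smallest p on this side, the estimate of the linear difference was below 0 for the 11 other than Ly6a. For the 12 on the positive side it was above 0.

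Several of the others on this side are receptors or signalling proteins of B cells. Fcer2a, the low-affinity IgE receptor CD23, ran from 32.8 to 39.4 in TrB_pos and 40.8 to 47.8 in TrB_del, and from 32.2 to 34.8 in eMZB_pos and 25.6 to 26.8 in eMZB_del. Its groups did not overlap in either cell type and had opposite orders, with a difference of -0.63 (adjusted p = 0.170). Rasgrp3, a Ras activator downstream of the B cell receptor, had a difference of -0.71 (adjusted p = 0.296), Il2rg, the common cytokine receptor gamma chain, -0.45 (adjusted p = 0.363), and Pim2, a survival kinase, -0.66 (adjusted p = 0.363). Also on this side were Ell3 (-0.55), Seh1l (-0.56), Shisa5 (-0.52) and H2-Q7 (-0.41), the last a class I gene of the Qa family whose reads may be shared with near-identical copies. All 12 chosen by p had a TrB response above 0 and 9 an eMZB response below 0, again in part a result of the choice. Between genotypes they did not overlap for 12 of 12 in TrB, where 10.5% of all genes did not, and for 8 of 12 in eMZB, where 18.4% did not. For the 12 on the positive side these counts were 8 in TrB and 10 in eMZB. The choice by p favours such separation, so the counts are a description only.

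**Figure D3:**
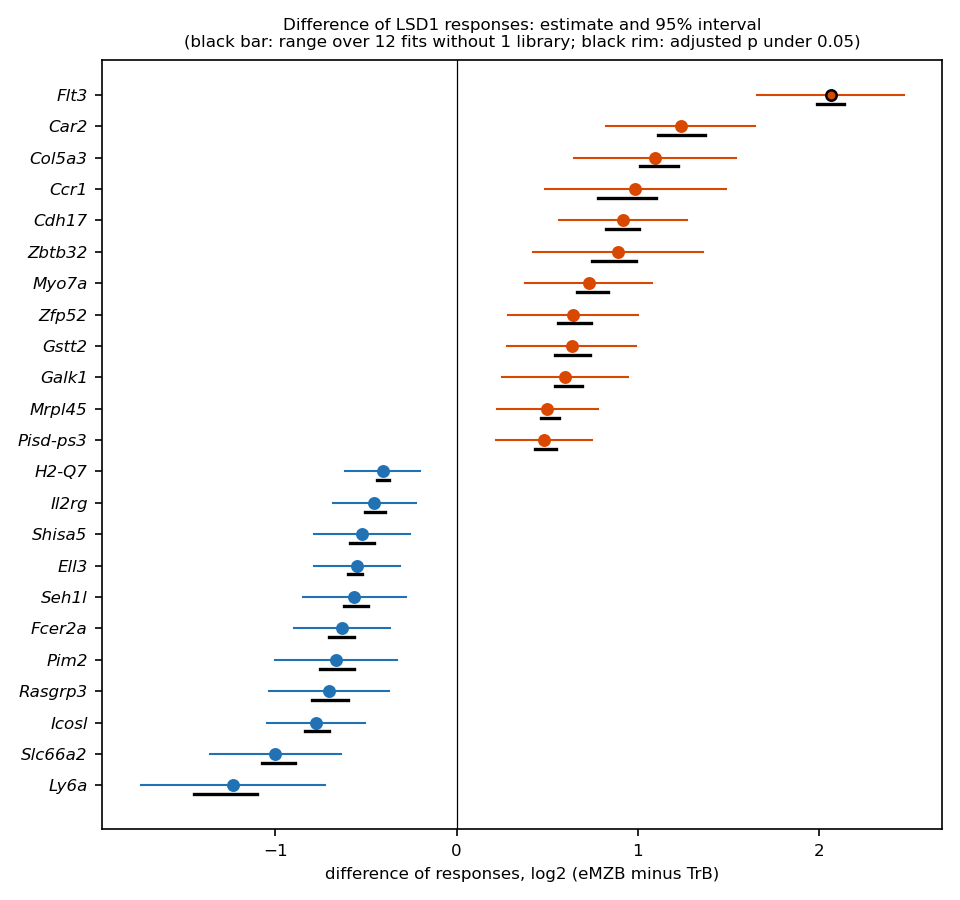
Difference of responses (eMZB minus TrB, log2) for the 12 genes named with a positive and the 11 named with a negative difference, with 95% intervals as coloured lines; the black bars give the range over the 12 fits that each leave out 1 library. Only Flt3, with the black rim, passed an adjusted p of 0.05, and no black bar crosses 0.

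Genes called in both responses numbered 17, 0.173% of the genes tested, and all 17 had the same sign in both. They were chosen by the responses that make up the difference, so the shared sign and the size of their differences follow in part from the choice and are a description, not evidence that the cell types respond alike. Their differences of responses ran from -1.0 (Slc66a2) to 0.76 (Alox5ap). For 12 of the 17 the 95% interval held 0, for 14 it lay within -1 to 1, and 0 passed the test of the difference. Over all genes tested the interval left out 0 for 6.85% and lay within -1 to 1 for 87.1%. Ctse, the protease cathepsin E, gave a difference near 0 with a narrow interval: it stood at 12.7, 13.3 and 14.4 in TrB_pos, 25.7, 27.7 and 30.3 in TrB_del, 8.33, 7.63 and 7.67 in eMZB_pos, and 17.7, 18 and 16.7 in eMZB_del. Both deleted groups lay well above their controls, and the difference was 0.06 (interval -0.20 to 0.32). Ddx23, an RNA helicase of the splicing machinery, ran from 1.16 to 1.85 in TrB_pos and 5.59 to 8.21 in TrB_del, and from 0.736 to 1.15 in eMZB_pos and 5.38 to 6.62 in eMZB_del, with a difference of 0.16 (interval -0.31 to 0.62). The integrin subunit gene Itgb7 gave -0.20 (interval -0.55 to 0.15). Genes that fell in both were Ide, which encodes insulin-degrading enzyme (0.24, interval -0.02 to 0.51), Btg2, an antiproliferative gene (-0.23, interval -0.49 to 0.04), and Ifi208 (-0.46, interval -0.88 to -0.03).

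Intervals that left out 0 belonged to 5 of the 17, against 6.85% of all genes. Besides Slc66a2 and Ifi208 these were Rapgef3, an exchange factor for Rap proteins that senses cyclic AMP (-0.59, interval -0.97 to -0.21), Ly6c2 (-0.96, interval -1.65 to -0.27) and Alox5ap, which hands arachidonic acid to 5-lipoxygenase (0.76, interval 0.19 to 1.33). These intervals are not adjusted for the number of genes, and adjusted p in limma was 0.624 for Rapgef3, 0.668 for Ly6c2 and 0.686 for Alox5ap. Alox5ap ran from 0.237 to 1.14 in TrB_pos and 2.80 to 3.98 in TrB_del, and from 0.220 to 0.321 in eMZB_pos and 4.27 to 5.45 in eMZB_del. Ly6c2 ran from 5.81 to 9.10 in TrB_pos and 46.8 to 60.1 in TrB_del, and from 9.64 to 20.5 in eMZB_pos and 45.1 to 54.2 in eMZB_del, so its deleted levels overlapped between the cell types while its control levels did not. Its reads may be shared with its close relative Ly6c1, and those of Srp54a (-0.26) and Srp54b (-0.12), 2 copies of a signal recognition particle gene, with each other.

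**Figure D4:**
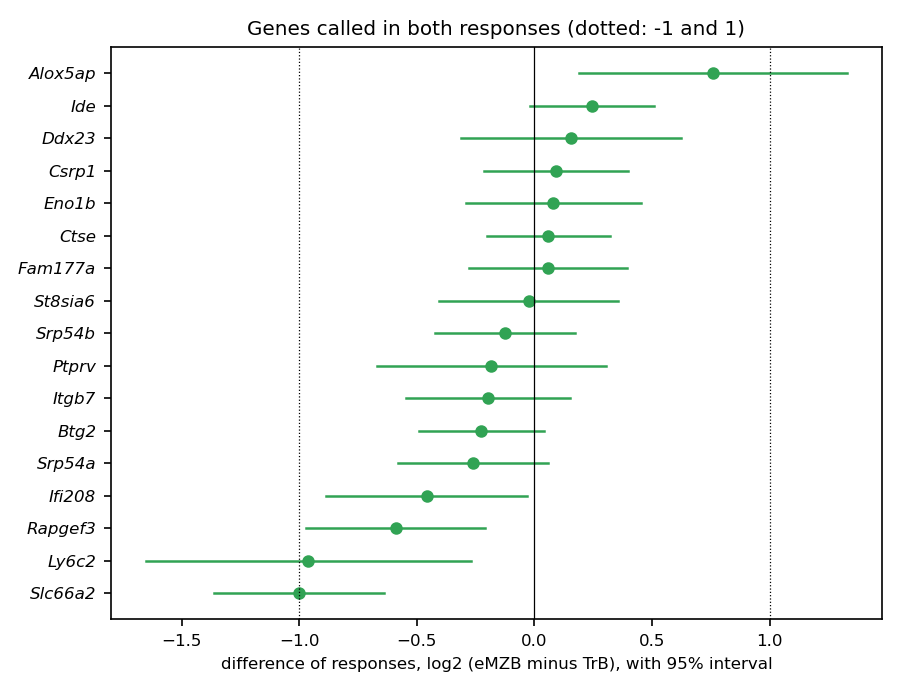
Difference of responses (eMZB minus TrB, log2) with its 95% interval for the 17 genes called in both responses; dotted lines mark -1 and 1. Estimates run from -1.0 to 0.76, and 12 of the 17 intervals hold 0.

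Gene lists for the pathways and cell types involved were then read for their counts and medians. In no list other than those of cytokine receptors and of dendritic cell markers, both of which hold Flt3, did a member pass the test, so no list is described as rising or falling. What follows are unadjusted counts, read against 2.87% of all genes with a positive and 3.98% with a negative difference, and medians, read against -0.01 over all genes and -0.06 over those reaching a mean of 5 scaled FPKM in some group. Many list members are well expressed, and among the 5038 genes with at least 5 scaled FPKM in 3 libraries the shares were 1.75% positive and 5.78% negative at an unadjusted p under 0.05. Below 0 lay 51.1% of all genes and 62% of these 5038. Genes of one list are not independent, and some, such as Cd40, stand in several lists.

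Several lists of B cell function had medians below that of all genes, with TrB medians above 0 and eMZB medians below. Others lay near the -0.06 of the well expressed genes. These were B cell identity (-0.06, 1 of 18 at an unadjusted p under 0.05), B cell receptor signalling (-0.06, 1 of 24) and Toll-like receptors and adaptors (-0.04, 2 of 20). For MHC class II, whose products present peptides to helper T cells, 15 of 16 genes had a negative difference and 7 of the 16 an unadjusted p under 0.05. The median was -0.19, from 0.04 in TrB and -0.17 in eMZB. Ciita, the master activator of the class II genes, stood at 12.7, 12.1 and 15.9 in TrB_pos, 15.5, 14.3 and 17.9 in TrB_del, 18.4, 17.2 and 18.4 in eMZB_pos, and 14.7, 14.0 and 13.4 in eMZB_del. Its genotypes overlapped in TrB, and in eMZB the deleted libraries were the lower ones. Its difference was -0.55 (SE 0.15, adjusted p = 0.518 in limma). The protease gene Ctss gave -0.38 and H2-Ob, a subunit of the peptide-loading regulator, -0.42.

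Noncanonical NF-kB and BAFF genes, the pathway that the culture engages through BAFF, had a median of -0.27 (0.14 in TrB, -0.13 in eMZB), with 11 of 12 below 0 and 4 of 12 at an unadjusted p under 0.05. Nfkb2, the precursor of the p52 subunit, ran from 16.7 to 22.3 in TrB_pos and 24.2 to 32.4 in TrB_del, and from 28.2 to 32.5 in eMZB_pos and 23.0 to 27.3 in eMZB_del. The order of the genotypes was thus opposite in the cell types, without overlap, and the difference was -0.66 (SE 0.18, adjusted p = 0.512). The ligand gene Ltb gave -0.58 and the receptor gene Cd40 -0.38. Among canonical NF-kB genes 16 of 18 were below 0 and 3 had an unadjusted p under 0.05, with a median of -0.18. That count of 3 was 5 without TrB_pos replicate 1 and 1 without eMZB_del replicate 1. Birc3, an inhibitor of apoptosis, gave -0.33 and the adaptor Bcl10 -0.29. Notch pathway genes, also engaged by the culture, had a median of -0.04, and 0 of 20 reached an unadjusted p under 0.05, though 1 did, with a positive difference, without TrB_del replicate 3 and 2 without TrB_pos replicate 3. Notch1 gave -0.34 (interval -0.81 to 0.13) and the DNA-binding partner Rbpj 0.30 (interval -0.09 to 0.70).

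Plasma cell genes had the lowest median of the 32 lists with at least 5 tested members, -0.35 (0.20 in TrB, -0.19 in eMZB). Of the 11, 5 had an unadjusted p under 0.05, all negative. Without any 1 library the 5 ran from 3 to 6, with 3 without eMZB_del replicate 2 or eMZB_pos replicate 2. Prdm1, which encodes the plasma cell regulator Blimp-1, ran from 0.531 to 0.707 in TrB_pos and 0.624 to 0.857 in TrB_del, and from 1.45 to 1.78 in eMZB_pos and 0.810 to 0.973 in eMZB_del (difference -0.53, adjusted p = 0.686). Xbp1, a driver of secretion, also gave -0.53. Jchain, the joining chain of secreted antibody, gave -3.73 with an SE of 1.28. It spread widely within groups, standing at 0.405, 21.9 and 24.2 in TrB_pos, 17.9, 42.0 and 59.2 in TrB_del, 9.11, 12.6 and 14.5 in eMZB_pos, and 0.658, 4.26 and 5.27 in eMZB_del. Without any 1 library its difference ran from -4.49 to -2.39.

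Of the 32 interferon response genes, 27 were below 0 and 7 had an unadjusted p under 0.05, with a median of -0.19 (0.18 in TrB, -0.06 in eMZB). Irf7, an interferon-induced regulator, gave -0.83 (SE 0.28), Rtp4 -0.68 and Ifi209 -0.40, each with an adjusted p of 0.684 or 0.686. The library labelled eMZB_pos replicate 3 was the lowest of its group in all 3, with 18.9 for Irf7 against 26.7 and 30.2 in the others. Leaving out 1 library at a time gave between 1 and 8 interferon genes with a negative difference at an unadjusted p under 0.05: 4 without TrB_del replicate 2, 3 without TrB_pos replicate 1, 2 without TrB_pos replicate 2 or eMZB_del replicate 3, and 1 without eMZB_pos replicate 2. The GIMAP GTPases, small GTPases of lymphocyte survival, were below 0 in 8 of 8, with 3 at an unadjusted p under 0.05 and a median of -0.27. Without any 1 library the 3 ran from 2 to 5, with 5 without TrB_del replicate 2. Gimap4 ran from 5.30 to 7.05 in TrB_pos and 11.6 to 15 in TrB_del, and from 20.7 to 21.6 in eMZB_pos and 25.6 to 30.3 in eMZB_del. It rose in TrB (1.05, adjusted p = 7.4e-04 in limma), and its difference was -0.67 (adjusted p = 0.429). Gimap6 gave -0.44 and Gimap1 -0.30.

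Stage markers did not all lie on one side. Follicular B cell genes had a median of -0.22, with 9 of 11 below 0 and 4 of 11 at an unadjusted p under 0.05, Icosl and Fcer2a among them. Marginal zone B cell genes had a median of -0.14, with 4 of 20 negative and 1 positive at an unadjusted p under 0.05. Without any 1 library the 4 ran from 3 to 5. The 1 became 2 without TrB_del replicate 1, TrB_pos replicate 1, TrB_pos replicate 3 or eMZB_del replicate 3. Cr2, which encodes the sorting marker CD21, ran from 7.79 to 10.0 in TrB_pos and 11.8 to 15.3 in TrB_del, and from 60.9 to 70.7 in eMZB_pos and 63.4 to 65.9 in eMZB_del. It rose in TrB (0.55, adjusted p = 0.0469 in limma) while its ranges overlapped in eMZB, which were sorted for CD21, and the difference was -0.57 (adjusted p = 0.512). Tm6sf1 gave -0.65 and Cd300lf, an inhibitory receptor, 0.81. Transitional and immature B cell genes had a median of 0.19, with 9 of 11 above 0. At an unadjusted p under 0.05, 3 were positive and 1 negative. Without any 1 library the 3 ran from 2 to 4, and the 1 stayed. On values as deposited the median was below 0 (-0.27, where all genes had a median of -0.46). Vpreb3, which assists assembly of the early B cell receptor, gave 0.46 and Cd24a 0.37, and both had negative differences on values as deposited.

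Cholesterol synthesis genes had the highest median of a list with more than 5 tested members, 0.32 (-0.15 in TrB, 0.17 in eMZB). Of the 18, 16 were above 0 and 4 had an unadjusted p under 0.05; as deposited the median was -0.11, still above the -0.46 of all genes. Without any 1 library that count of 4 ran from 1 to 6. It was 1 without TrB_pos replicate 1, eMZB_del replicate 1, eMZB_del replicate 3 or eMZB_pos replicate 1, and 2 without TrB_pos replicate 3 or eMZB_pos replicate 2. Msmo1, a sterol demethylating enzyme, ran from 2.60 to 3.85 in TrB_pos and 1.93 to 2.13 in TrB_del, and from 4.29 to 4.64 in eMZB_pos and 5.01 to 5.37 in eMZB_del, with no overlap in either and opposite orders (difference 0.59, SE 0.16, adjusted p = 0.512). Lss, the gene of lanosterol synthase, gave 0.55. MYC and ribosome biogenesis genes had a median of 0.16 (0.08 in TrB, 0.24 in eMZB), with 19 of 24 above 0 and 2 at an unadjusted p under 0.05, Wdr12 (0.45) and Ddx21 (0.45); as deposited the median was -0.32 and both genes were just below 0. Without any 1 library that count of 2 ran from 1 to 3. It was 1 without TrB_del replicate 1, eMZB_del replicate 1, eMZB_pos replicate 1 or eMZB_pos replicate 2. Glycolysis had a median of 0.01 with 3 of 16 at an unadjusted p under 0.05, the enzyme genes Tpi1 (0.35), Gapdh (0.26) and Eno1 (0.30), each negative as deposited. Without any 1 library the count of positive genes ran from 1 to 4, with 1 without eMZB_del replicate 1.

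Genes of the LSD1 and CoREST complexes had a median of -0.02, and 1 of 19, the second flavin-dependent demethylase gene Kdm1b, reached an unadjusted p under 0.05 (-0.54, adjusted p = 0.728). Without any 1 library other than TrB_del replicates 1 and 2, TrB_pos replicate 3 and eMZB_del replicate 2, that negative count was 0. Cytokine receptor genes had a median of -0.11, with 14 of 20 below 0. At an unadjusted p under 0.05, 3 were positive, Flt3 among them, and 2 negative. Without any 1 library the 3 ran from 1 to 3 and the 2 from 1 to 6. Il2rg was negative, and Csf2rb, the common beta chain, stood at 0.38 (negative as deposited). Macrophage and monocyte markers had a median of 0.36 over the 5 listed, with 3 above 0 and 2 below. Adgre1, the gene of the excluded marker F4/80, gave 0.61 and Cd68 0.66, against -0.96 for Ly6c2. The 5 summed to 12.7 to 15.3 scaled FPKM in TrB_pos and 52.8 to 69.5 in TrB_del. In eMZB they summed to 16.7 to 27.9 in eMZB_pos and 56.7 to 64.1 in eMZB_del. Ly6c2 was the largest part in both deleted groups. Its means were 7.80 in TrB_pos and 51.7 in TrB_del, and 15.8 in eMZB_pos and 49.1 in eMZB_del. The rise of the sums was therefore mostly that of Ly6c2. Adgre1 and Cd68 had lower means in TrB_del than in TrB_pos, and the other members higher ones. The part of macrophages or monocytes in the differences was not tested.

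**Figure D5:**
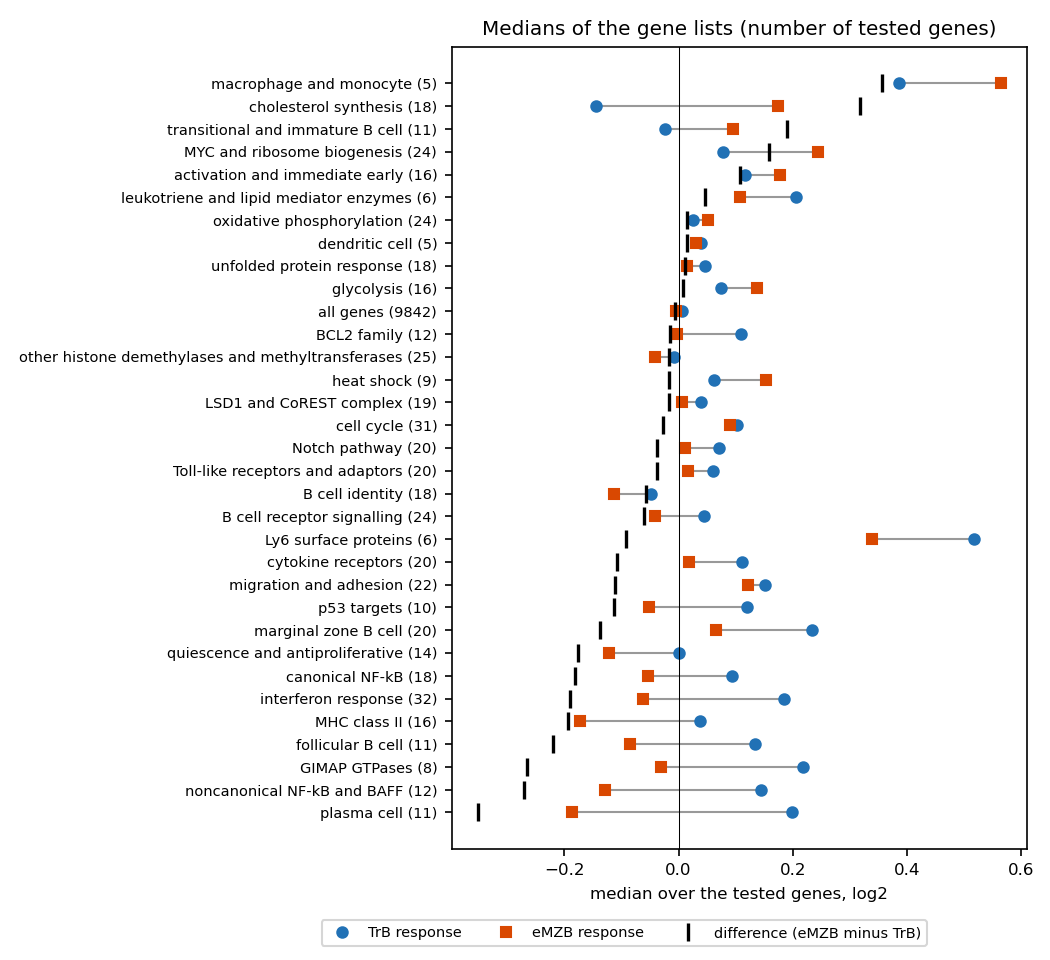
Median response over the tested members of each gene list in TrB (circles) and in eMZB (squares), and median difference of responses (black ticks), log2; the number of tested genes stands in parentheses. Cholesterol synthesis lies at 0.32 and plasma cell genes at -0.35, against -0.01 for all genes.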

How the data were processed

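RNA from 2000 sorted cells per library was made into cDNA with SMART-Seq v4 and into libraries with Nextera XT, which does not mark strand, per the labels' protocols. STAR and mm10 are named in the submitters' processing notes; for the STAR version, counter, annotation and read total, nothing is given in the sources used here. Values are the authors' own: 1 deposited table holds FPKM for 9842 genes with Entrez IDs, of which 9833 matched a symbol and 9 did not; 0 value columns were left unused. Every gene reached 1 FPKM in at least 3 libraries. Whole reads were recovered from the FPKM for all 9842 genes, by the shortest gene length that gave whole reads within 0.02. That bound was set for the search and is not a measured accuracy. Library totals, found with 197 small RNA genes of known length, came out at 7.24 to 19.35 M reads. For 177 of these small RNA genes the recovered length was the reference length. Without molecular identifiers, PCR copies are counted too, and the read numbers speak to counting error only.

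Deposited FPKM were divided by median-of-ratios factors (0.613 to 2.144, over 9446 genes above 0 in all libraries), since their sums ran from 60647 to 212404. limma (3.58.1, R 4.3.3; lmFit, eBayes with trend) was fitted on log2(scaled FPKM + 1) to 4 group means over all 12 libraries, with 8 residual degrees of freedom. The contrast was (eMZB_del minus eMZB_pos) minus (TrB_del minus TrB_pos), and a gene was called at a Benjamini-Hochberg adjusted p under 0.05 over all genes, with no fold threshold. The fit was tested on simulated data. Replicate numbers are the labels' own; how far they pair libraries is described with the dependence on processing.

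The comparison, the gene lists and the rule for named genes were chosen with earlier results of these data known. The rule took every called gene, then the uncalled genes of smallest p with a group mean of at least 5 scaled FPKM until each direction held 12 (without predicted, microRNA and snoRNA genes and immunoglobulin or T cell receptor segments), the 3 members of smallest p of each of 38 lists, Kdm1a and the sorting markers, the genes called in both responses, and the 5 largest responses called in 1 cell type alone. Values of 2 genes that the rule names are not reported here, though counts and medians include them. Lists were described by counts and medians, with no set test. Positions are those of RefSeq on mm10 (GRCm38), matched by Entrez ID and counted from 1. Alternatives were other scalings, pseudocounts of 0.1 and 5, a filter at 5 FPKM, the replicate number as a block, other variance models, library weights, voom on recovered reads, and leaving out each library; leaving out both controls numbered 3, and the difference on a linear scale, were added after seeing the data. Python 3.11.15, pandas 2.3.3 and matplotlib 3.10.9 served for tables and figures.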

Additional observations from a re-analysis of the deposited data

Results flagged for a closer look

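For Flt3 the response to loss of LSD1 differed between the cell types by a test of the difference itself: 2.06 (SE 0.19) on the log2 scale, eMZB minus TrB, with an adjusted p of 9.1e-04 in limma over 9842 genes. All 3 eMZB_del libraries (4.52 to 5.67 scaled FPKM) lay above the 3 eMZB_pos libraries (0.675 to 1.06), while all 3 TrB_del libraries (0.402 to 0.469) lay below the 3 TrB_pos libraries (0.721 to 0.864). Groups without overlap were found for 18.4% of all genes in eMZB and 10.5% in TrB. The TrB response of Flt3 alone did not pass the test. In TrB the levels rest on 13 to 48 reads per library, and the order of the groups depends on the scaling of TrB_del replicate 3.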

How the results depend on the processing

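Flt3 passed in every alternative in which it was tested, and the number of genes passing with it varied. It was 15 on FPKM as deposited (11 positive, 4 negative; most are microRNA genes, and the median over all genes was then -0.46), 6 with a pseudocount of 5, 18 with library weights (6 positive, 12 negative), and 2 without both controls numbered 3 (Flt3 and Ly6a). It was 0 of 5038 with the filter at 5 FPKM, which leaves Flt3 out and where 379 genes had an unadjusted p under 0.05. Leaving out 1 library gave 1 to 5 genes: 5 without the library labelled TrB_pos replicate 3 (Car2, Casp6, Flt3, Ly6a and Mir7211), and 2 each without eMZB_del replicate 1 (Flt3 and Mir1949) and without eMZB_del replicate 2 (Flt3 and Mir7228). The planned removal of the filter changed nothing, since every listed gene passes it. The number of genes with an interval within -1 to 1, 8572, was 886 on FPKM as deposited, 6808 with a pseudocount of 0.1, 9718 with one of 5, 6656 with voom, 4763 of 5038 with the filter, and 8169 to 8962 without any 1 library. The share of positive differences among genes at an unadjusted p under 0.05 was 41.8%, but 61.3% with upper-quartile factors, 53.7% as deposited, 57.4% with voom and 23.2% with the filter. The causes were not tested.

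Of 74 genes followed through 26 alternatives, 60 kept their direction in all. On FPKM as deposited these turned negative: Pisd-ps3 (-0.042), Vpreb3 (-0.10), Cd24a (-0.19), Wdr12 (-0.0087), Ddx21 (-0.017), Tpi1 (-0.18), Gapdh (-0.29), Eno1 (-0.21), Csf2rb (-0.088), Rbpj (-0.13), Ddx23 (-0.066), Ctse (-0.45) and Ide (-0.26). Ctse was also -0.031 with a pseudocount of 5. Kdm1a turned positive with library weights (0.047) and without the library labelled TrB_pos replicate 3 (0.12).

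Relative to the median of all genes, the medians of the lists MHC class II, interferon response, plasma cell, noncanonical and canonical NF-kB, follicular, marginal zone, GIMAP, cholesterol synthesis, MYC and transitional B cell kept their side in all 26 alternatives. So did those of cytokine receptors, migration and adhesion, p53 targets, and quiescence and antiproliferative genes. The alternatives share libraries, so a kept side is not independent support for a list. Medians that moved were canonical NF-kB with the filter (-0.082), MHC class II without both controls numbered 3 (-0.298), cholesterol synthesis with a pseudocount of 5 (0.169), and macrophage markers as deposited (0.636), with pseudocounts of 0.1 (0.920) and 5 (0.081) and with voom (0.869). Without any 1 library the plasma cell median ran from -0.479 to -0.272 and that of heat shock from -0.081 to 0.124.

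Replicate numbers were not taken to pair the libraries in the main fit, and the values do not settle whether they do. Deviations of same-numbered libraries of a genotype correlated across the cell types at 0.161, 0.106 and 0.292 for del and at 0.07, 0.015 and 0.273 for pos. Those of different number ran from -0.249 to 0.12 for del and from -0.23 to 0.221 for pos. With the replicate number as a block, 1 gene passed, Flt3 (adjusted p = 0.0031 in limma), and with a block per number and genotype also 1, Flt3 (adjusted p = 0.0208). Genes of low level had the wider intervals: the interval reached past -1 to 1 for 1270 genes, against 295 of the 5073 whose mean reached 5 scaled FPKM in some group. The part of depth in this was not tested.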
